A study of Mus musculus with 167 samples.

Results

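The livers compared here came from 8 heterozygous Q20 mice and 8 wild-type (WT) mice, all labelled as 6 months old, and were chosen by these labels alone. They make up 16 of the 167 small RNA libraries of an *Htt* allelic series in liver. Each Q20 mouse carried 1 wild-type *Htt* allele and 1 allele in which a human *HTT* exon 1 with a nominal repeat of 20 CAGs had been knocked in. The WT mice carried neither a human exon nor any other engineered allele, and per the study's methods they were littermates of the Q20 line. All mice were on a C57BL/6 background, no agent was given, and each genotype held 4 females and 4 males by label. The study counts Q20 mice as controls because their repeat is close to the human average, and uses them together with WT. The comparison therefore asks whether the libraries of both control groups hold the same microRNA levels, and at 6 months these libraries did not.

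Genotype and library set were confounded. The 8 Q20 libraries carry names that spell out tissue, genotype and sex, as do the 40 libraries of the longer alleles (Q80 to Q175) at 6 months. The 8 WT libraries carry names built from another numbering, which the 2 month and 10 month libraries share. For this series of mice, the methods of the study list WT liver at 2 and 10 months and not at 6. A difference between genotypes and a difference between library sets cannot be told apart in these 16 libraries. Every value below is given as Q20 against WT in that sense.

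MicroRNAs are cut from hairpin precursors by Drosha in the nucleus and by Dicer in the cytoplasm, and a mature arm of the hairpin then guides Argonaute to target transcripts, mainly through its seed, bases 2 to 8. Several precursors often lie on 1 primary transcript, and different precursors can release the same mature arm. The table lists precursors and not arms, so that reads of a shared arm had to be assigned to 1 precursor or divided. In liver, hepatocytes supply most microRNA, above all miR-122, miR-192, miR-194, miR-22 and miR-148a. A difference in a whole-liver library can come from fewer cells of a type or from less RNA per cell, and these cannot be told apart.

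Of 313 precursors tested, 179 (57.2%) differed between Q20 and WT at an adjusted p under 0.05 in edgeR's quasi-likelihood test, with 100 (31.9%) higher and 79 (25.2%) lower in Q20. The change was more than 2-fold, beyond 1 on the log2 scale, in 47 of the precursors that were higher and in 35 of those that were lower. In 64 precursors (20.4%) the lowest library of 1 genotype lay above the highest library of the other, 38 of them higher and 26 lower in Q20. The median log2 change over all 313 was 0.07. The higher precursors held 40.4% of Q20 counts and 22.1% of WT counts, and the lower precursors held 44.6% and 64.4%, so that the precursors that were lower included much of the abundant RNA.

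**Figure D1:**
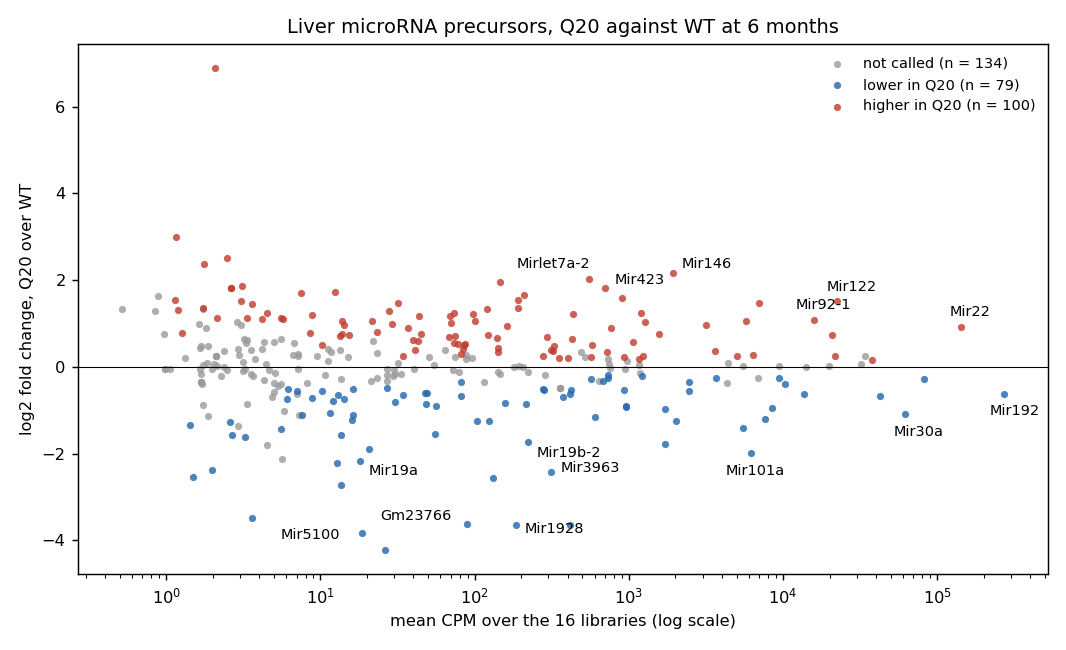
Log2 fold change of Q20 over WT at 6 months (vertical axis) against the mean level over the 16 libraries (horizontal axis, counts per M, log scale), 1 point per precursor. Called precursors, 100 higher in red and 79 lower in blue, occur from the lowest levels up to Mir192 and Mir22, the most abundant precursors, which lie on opposite sides of 0.

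Library totals differed as well. Q20 totals ran from 3.42 to 5.50 M counts (M, mega) and WT totals from 1.98 to 3.54 M counts. Means were 4.38 and 2.91 M counts (n = 8 each), a difference of 1.47 M counts with p = 0.000311 in an exact two-sided permutation test over samples. Levels are given as CPM, counts per M counts of the library, and thinning each library to the lowest total left 166 calls. The first principal component, 43.7% of the variance over the tested precursors, separated the 8 Q20 from the 8 WT libraries, and the second (16.9%) separated males from females in both groups. The WT library of female 3 stood apart on the third component (10.5%). It was the highest WT library, and so the nearest to Q20, in 73 of the 100 precursors that were higher. It was also the highest in 58 of the 134 not called, and the lowest, nearest to Q20, in 22 of the 79 that were lower. Without it, 196 precursors were called, 117 higher and 79 lower, and the groups did not overlap in 102 precursors in place of 64. The library names also carry an L code, such as L53 in Q20 female 4, and the labels do not say what it stands for. Only L8 occurred in both genotypes (2 Q20 libraries, both male, and 5 WT libraries, female 3 among them). With the L code in the fit, genotype was thus compared within L8 alone, and 89 precursors were called, 88 of them among the 179. Whether L8 meant the same in both name sets was not stated.

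The mature sequences below are shown because the difference between Q20 and WT ran in opposite directions among hairpins of the same primary transcript, among members of 1 seed family and among precursors that release the same arm. The arms let-7b-5p and let-7f-5p are added to show other let-7 members with values below, whose precursors were all higher. The sequences are RefSeq entries on GRCm38, 5′ to 3′, with the seed in capitals. Of the 313 tested precursors, 220 had a RefSeq mature arm.
miR-99a-5p: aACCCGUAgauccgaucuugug
miR-100-5p: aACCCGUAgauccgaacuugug
miR-125b-5p: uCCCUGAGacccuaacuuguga
miR-125a-5p: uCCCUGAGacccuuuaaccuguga
let-7c-5p: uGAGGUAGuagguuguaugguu
let-7b-5p: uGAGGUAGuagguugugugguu
let-7f-5p: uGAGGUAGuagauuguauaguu
miR-17-5p: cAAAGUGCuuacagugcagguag
miR-20a-5p: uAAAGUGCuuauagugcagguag
miR-19a-3p: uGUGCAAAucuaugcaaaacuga
miR-19b-3p: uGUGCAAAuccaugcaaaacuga
miR-92a-3p: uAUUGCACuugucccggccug
miR-30a-5p: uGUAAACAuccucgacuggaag
miR-30e-5p: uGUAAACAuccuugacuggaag
miR-30c-5p: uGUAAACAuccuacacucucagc
miR-26a-5p: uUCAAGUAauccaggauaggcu
miR-181a-5p: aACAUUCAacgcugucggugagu
miR-181b-5p: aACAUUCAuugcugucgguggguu

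A second set is shown because these arms belong to precursors with the smallest p-values or the largest differences among those with a symbol, except miR-194-5p, which is released by a pair of precursors summed below.
miR-101a-3p: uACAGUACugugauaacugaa
miR-194-5p: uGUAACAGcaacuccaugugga
miR-146a-5p: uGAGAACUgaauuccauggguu
miR-146b-5p: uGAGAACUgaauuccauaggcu
miR-423-5p: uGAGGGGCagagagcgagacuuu
miR-744-5p: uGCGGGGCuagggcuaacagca
miR-1928: aGCUACAUugccagcuc
miR-5100: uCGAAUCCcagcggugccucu
miR-3963: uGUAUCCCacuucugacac

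The precursors that liver holds most of were split between directions. Mir192, which is induced by hepatocyte nuclear factors, was the most abundant, with a lowest, median and highest Q20 level of 184805, 230018 and 242681 CPM against 212128, 317947 and 381091 CPM in WT, and fell by 0.62 ± 0.13 (SE) on the log2 scale (adjusted p = 8.11e-04). Mir22 was higher, at 174581, 190045 and 200411 CPM in Q20 and 72478, 81098 and 202232 CPM in WT (0.92 ± 0.14 log2, adjusted p = 3.93e-05). Both sets of values overlapped, and for Mir22 the overlap came from WT female 3 alone, whose 202232 CPM compare with at most 89491 CPM in the other WT livers. Mir122, the hepatocyte microRNA best known for its part in lipid metabolism, did not overlap.

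Q20 livers held 31698, 33625 and 36824 CPM of Mir122 and WT livers 9111, 10011 and 21513 CPM, a difference of 1.51 ± 0.12 log2 (adjusted p = 1.89e-08). The highest WT value was again female 3. Mir30a, the most abundant member of the miR-30 family, at chr1:23272269-23272339, went the other way, with 39396, 41808 and 43447 CPM in Q20 and 59554, 83388 and 94811 CPM in WT (-1.09 ± 0.11 log2, adjusted p = 2.60e-07). Among the other 6 of the 10 most abundant precursors, Mir148a and Mir21a were lower, by 0.27 and 0.67 log2. Mir26a-2 and Mir126a were higher, by 0.17 and 0.24 log2. Mir143 (0.26 ± 0.12 log2, adjusted p = 0.073) and Mir10a (0.06 ± 0.07 log2, adjusted p = 0.461) did not pass the test. The small changes depended on the fit: Mir26a-2 lost its call with RLE size factors (adjusted p = 0.313), and Mir148a with total count scaling (adjusted p = 0.109).

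Among precursors with a symbol that were lower without overlap, Mir101a (chr4:101346945-101347027, in an exon of the noncoding E130102H24Rik) had the smallest p-value. Its mature arm is best known for repressing the histone methyltransferase Ezh2. Levels of Mir101a were 2061, 2690 and 3047 CPM in Q20 and 6653, 9683 and 12178 CPM in WT. The difference was -1.99 ± 0.15 log2 (adjusted p = 1.57e-08), and every Q20 liver lay below every WT liver. Mir101b, on another chromosome and in an intron of Rcl1, was lower too, by 1.20 log2, and its libraries did not overlap either (4085 to 5607 CPM in Q20, 7536 to 11387 CPM in WT). The mature arms of the pair share most of their bases, and Mir101a held non-whole counts in all 16 libraries. How reads were assigned between Mir101a and Mir101b was not tested.

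Among precursors with a symbol that were higher without overlap, the smallest p-values belonged to Mir744, Mir423 and Mir146. Mir744, in an intron of Map2k4 (chr11:65734733-65734832), was at 289, 329 and 344 CPM in Q20 and 73.2, 89.2 and 170 CPM in WT (1.66 ± 0.12 log2, adjusted p = 1.57e-08). Mir423, in an intron of Nsrp1 (chr11:77078064-77078172), was at 997, 1117 and 1168 CPM in Q20 and 217, 253 and 594 CPM in WT (1.82 ± 0.13 log2). WT female 3 gave the highest WT value of both. Mir146, which NF-κB induces and which dampens that signal through Irak1 and Traf6, was at 2024, 2946 and 5150 CPM in Q20 and 501, 609 and 969 CPM in WT (2.15 ± 0.16 log2, adjusted p = 1.57e-08).

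Mir146b, from another chromosome but with the same seed, was at 178, 206 and 350 CPM in Q20 and 33.6, 55.6 and 82.5 CPM in WT (1.96 ± 0.16 log2). The mature arms of the pair differ at G18A and U21C, counted from the 5′ end of miR-146a-5p, and Mir146 and Mir146b held non-whole counts in all 16 libraries. Whether reads were divided between the pair was not stated. Of the other 5 leukocyte precursors tested, none was called higher, beside 31.9% of all precursors. Mir150, Mir155, Mir223 and Mir342 lay between 0.19 and 0.40 log2 and did not pass the test. WT female 3 was the highest WT library for Mir150 (278 CPM, at most 89.1 CPM in the other WT livers). The same held for Mir342 (146 CPM, at most 88.7 CPM in the others). Mir142b was lower, by 1.26 ± 0.10 log2, at 845 to 1639 CPM in Q20 and 2248 to 3461 CPM in WT. The identifier is listed as Mir142b in GENCODE, but the length implied by the deposited values is 64 bases and the annotated length 115 bases, and Mir142 lies on the opposite strand, so which hairpin was counted is uncertain.

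The largest differences among precursors above 10 CPM with a gene symbol were lower in Q20 and belonged to little-studied hairpins. Mir5100, in an intron of Mief2, was at 1.62, 2.16 and 4.56 CPM in Q20 and 22.8, 26.3 and 87.8 CPM in WT (-3.84 ± 0.30 log2). Mir1928 was at 16.3, 28.1 and 37.6 CPM in Q20 and 130, 315 and 730 CPM in WT (-3.66 ± 0.31 log2). Gm23766, on the strand opposite to Prep, was at 7.11, 12.4 and 36.3 CPM in Q20 and 96.3, 153 and 267 CPM in WT (-3.62 ± 0.29 log2). None of the 3 overlapped, and all 3 held non-whole counts in most libraries (10, 15 and 16 of the 16). Mir3963 held whole counts throughout and was lower by 2.42 ± 0.19 log2, at 83.7 to 122 CPM in Q20 and 299 to 1019 CPM in WT.

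In all, 13 precursors were more than 4-fold lower and 6 more than 4-fold higher. The 13 were short, with a median length of 69 bases and 10 of them at 80 bases or less, and 10 held non-whole counts in at least 1 library, as did 5 of the 6 that were higher and 139 of all 313. Of the 13, 5 are named only by transcript identifier, led by ENSMUST00000174940 (-4.22 log2, a mean of 2.78 CPM for Q20 livers, 49.4 CPM for WT) and ENSMUST00000175045 (-3.66 log2, means of 61.2 and 771 CPM). Of the 6 that were higher, only Mir146 and Mirlet7a-2 averaged above 10 CPM. Gm27509, a value picked out after it was seen, was at 6.87 to 28.4 counts in each Q20 library and at most 0.0013 counts in WT. Against a floor of 3 counts over the 8 WT libraries it was at least 32.2-fold higher.

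The let-7 family, which holds back growth and keeps cells differentiated and is itself blocked by Lin28, was higher as a whole. All 10 tested members were higher (31.9% of all precursors), with a median of 1.01 log2 beside 0.07 over all precursors. Their summed level was 49752 to 58174 CPM in Q20 and 23549 to 40728 CPM in WT. The most abundant, Mirlet7f-2, was at 24533, 26431 and 28465 CPM in Q20 and 12022, 14340 and 18677 CPM in WT (0.72 ± 0.07 log2, adjusted p = 1.97e-07). Differences within the family ranged widely, from 0.27 ± 0.08 log2 for Mirlet7g, which lost its call with RLE size factors (adjusted p = 0.0897), to 2.03 ± 0.18 log2 for Mirlet7a-2. Mirlet7b (1.25 ± 0.10 log2) and Mirlet7i (0.76 ± 0.07 log2) lay between them. All members but Mir98 held non-whole counts in all 16 libraries and let-7c-5p, for example, is released by more than 1 of these hairpins.

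Members of the let-7 family lie in clusters with precursors of the miR-99/100 and miR-125 families, a grouping kept across animals, and there the neighbours moved apart. On chr16:77598936-77646343, in introns of Mir99ahg, Mirlet7c-1 was higher by 1.59 log2, while Mir99a was lower by 0.53 log2 and Mir125b-2 by 0.93 log2. On chr9:41531425-41582002, Mirlet7a-2 was higher by 2.03 log2, while Mir100 was lower by 1.16 log2 and Mir125b-1 by 1.24 log2. All 6 passed the test, and their standard errors were at most 0.18 log2. On chr17:17830188-17830879, in Spaca6, Mir99b was lower by 0.97 log2 and Mir125a by 0.35 log2. The precursor between them, Gm25927, was higher by 1.36 log2. It is annotated on the strand opposite to Mirlet7e, and although the methods call the sequencing strand-specific, the strand setting of the counting was not stated. How reads were assigned between the pair was not tested.

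Ratios within a library need no scaling between libraries. The pairs were picked after the values were seen and are given as description. The count of Mirlet7a-2 over that of Mir100 was 1.84, 2.33 and 2.54 (lowest, median, highest) in Q20 and 0.129, 0.205 and 1.08 in WT. WT female 3 held the most Mirlet7a-2 of the WT livers (517 CPM, against at most 224 CPM in the others). Medians at the other ages lay between, at 1.49 and 1.52 at 2 months and 0.904 and 1.06 at 10 months for Q20 and WT. The ratio of Mirlet7c-1 to Mir125b-2 behaved alike, with medians of 2.15 in Q20 and 0.290 in WT at 6 months and from 0.782 to 0.895 in the 4 groups of other ages. In both ratios the 6 month Q20 median lay above, and the 6 month WT median below, all 4 groups of the other ages.

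The miR-10, miR-99/100 and miR-125 precursors as a list went the other way from let-7: 7 of 8 tested were lower (25.2% of all precursors) and none was higher, with a median of -0.95 log2. Mir10b, from the Hoxd cluster, was at 150, 857 and 1088 CPM in Q20 and 1516, 2290 and 4418 CPM in WT (-1.77 ± 0.28 log2, adjusted p = 4.50e-05). The exception was Mir10a, which shares the seed of Mir10b.

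**Figure D2:**
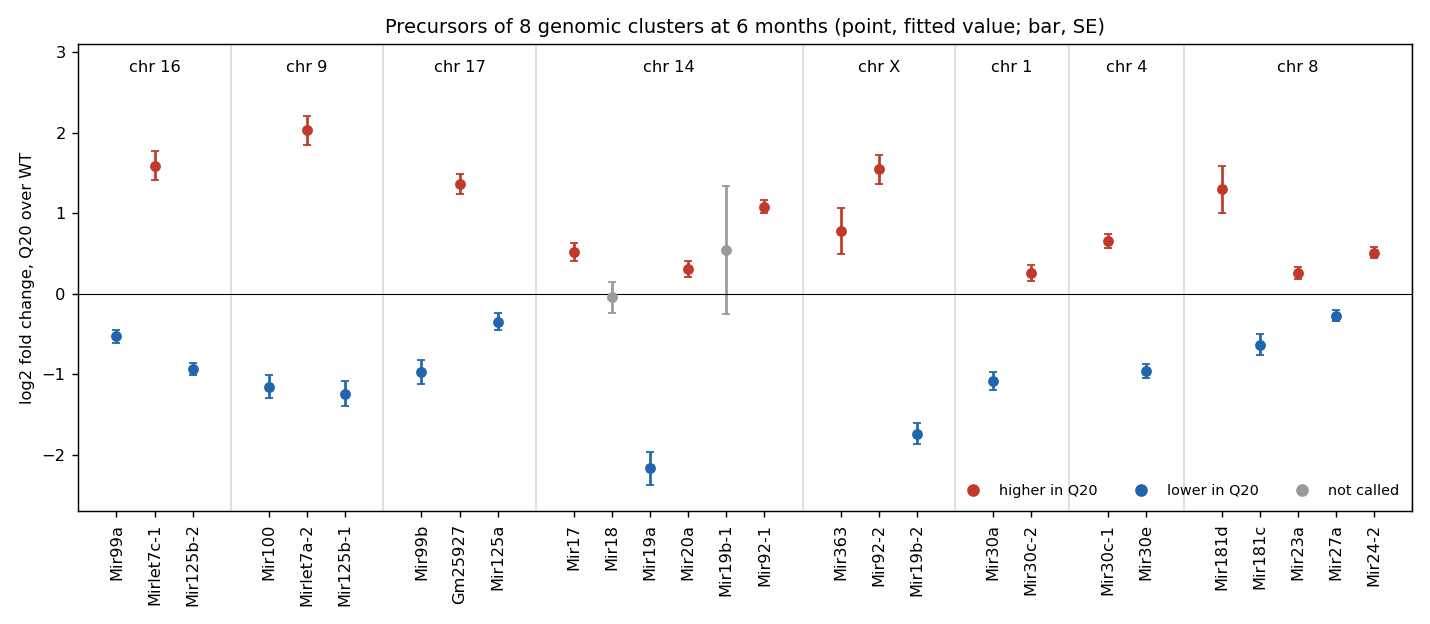
Log2 fold change of Q20 over WT at 6 months (vertical axis, point, with its SE as bar) for each tested precursor of 8 genomic clusters, grouped along the horizontal axis by chromosome. Each cluster held called precursors in both directions, as for Mirlet7a-2 at 2.03 between Mir100 at -1.16 and Mir125b-1 at -1.24.

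The miR-17-92 cluster, a growth-promoting transcript induced by Myc, also held calls in both directions. On chr14:115043671-115044506, within Mir17hg, Mir17 and Mir20a were higher by 0.52 and 0.30 log2. Mir92-1 was higher by 1.08 ± 0.08 log2, at 19684, 21262 and 27638 CPM in Q20 and 7914, 9173 and 12686 CPM in WT. Mir19a, which lies between them, was lower by 2.17 ± 0.21 log2, at 3.09, 7.32 and 8.93 CPM in Q20 and 18.4, 30.2 and 36.6 CPM in WT. Neither Mir19a nor Mir92-1 overlapped between genotypes, although both are cut from 1 primary transcript.

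In the paralogous cluster on chrX:52741693-52742066, Mir19b-2 was lower by 1.74 ± 0.13 log2 (Q20 livers held 90.1, 105 and 131 CPM, WT livers 262, 341 and 415 CPM) and its neighbour Mir92-2 higher by 1.54 ± 0.18 log2. The median ratio of Mir92-2 to Mir19b-2 was 2.63 in Q20 and 0.233 in WT, and from 0.692 to 0.812 in the groups of other ages. The arms miR-19a-3p and miR-19b-3p differ by U11C, counted from the 5′ end of miR-19a-3p, and both were low in Q20. Over this list of clusters, 6 of 12 tested precursors were higher, 3 lower and 3 not called, with a median of 0.41 log2. Over all precursors 31.9% were higher and 25.2% lower, so the lower share of the list was at the background. Mir93 was not called (0.07 ± 0.06 log2, adjusted p = 0.350), while its neighbours Mir25 and Mir106b were higher by 0.58 and lower by 0.36 log2.

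The miR-30 family shares the seed GUAAACA and split by arm. Mir30a and Mir30e were lower, by 1.09 and 0.96 log2. Mir30c-2 and Mir30c-1, each in a cluster with 1 of them, were higher, by 0.26 and 0.65 log2. Mir30d (-0.01 ± 0.08 log2, adjusted p = 0.951) and Mir30b (-0.04 ± 0.14 log2, adjusted p = 0.846) did not pass. In an intron of Nfyc, Mir30e was at 5315, 5984 and 7083 CPM in Q20 and 9099, 10447 and 12467 CPM in WT. Mir30c-1, from the same intron, was at 493, 504 and 665 CPM in Q20 and 265, 300 and 411 CPM in WT (adjusted p = 5.41e-06). The call of Mir30c-2 was lost in 14 of 26 alternative fits, with edgeR or DESeq2 adjusted p-values up to 0.122 and differences from 0.17 to 0.40 log2.

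Across the genome, 45 clusters held 2 or more tested precursors, counting neighbours within 200 kb, and 27 of them had 2 or more called. Calls went in both directions in 15 of the 27, all higher in 8 and all lower in 4. Of 51 groups of tested precursors that share a mature seed, 32 had 2 or more called, and 11 of the 32 had calls in both directions. In the miR-181 family, for example, Mir181b-1 was higher by 1.06 log2 and Mir181d by 1.29 log2, while their cluster neighbours Mir181a-1 and Mir181c were lower by 0.82 and 0.63 log2. Over all precursors 57.2% were called, 31.9% higher and 25.2% lower. How often precursors grouped without regard to cluster or seed would part in direction was not tested, so these counts are a description.

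In 16 groups, with 36 tested precursors, the members release an identical arm. In 2 of the groups calls went in opposite directions. Mir181a-1 was lower by 0.82 log2 and Mir181a-2 higher by 0.36 log2. Mir26a-1 was lower by 0.32 log2 and Mir26a-2 higher by 0.17 log2, the first held non-whole counts in 16 libraries and the second in 15. With the counts of such copies summed, a fit chosen after seeing the data, 172 of 294 were called (95 higher, 77 lower). The sums of miR-181a and miR-26a were then both higher, by 0.31 and 0.16 log2. The summed Mir194 copies were lower by 0.91 ± 0.09 log2, after -1.41 log2 for Mir194-1 and -0.25 log2 for Mir194-2 alone. The summed Mir19b copies were lower by 1.67 ± 0.12 log2 and the summed Mir92 copies higher by 1.09 ± 0.08 log2.

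Of 14 hepatocyte-abundant precursors 9 were lower, 4 higher and 1 was not called, with a median of -0.40 log2. Over all precursors 25.2% were lower and 31.9% higher, and 73.3% were called in the highest tertile of level. Their summed level nevertheless overlapped, at 545464 to 591408 CPM in Q20 and 570829 to 614001 CPM in WT. The miR-23/27/24 clusters had 3 higher, 1 lower and 2 not called of 6, with a median of 0.21 log2, a called share near the 57.2% of all precursors. Mir24-2 was higher by 0.51 log2, Mir23a by 0.26 log2, and Mir27a, between them, was lower by 0.28 log2. Of 4 miR-29 precursors, which repress collagens, Mir29b-1 was lower by 0.60 log2 and the other 3 did not pass. Mir29a, for instance, differed by 0.01 ± 0.05 log2 (adjusted p = 0.828).

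Markers of the other cells of the liver were read beside the same shares over all precursors, 57.2% called, 31.9% higher and 25.2% lower. Of 5 biliary precursors only Mir141 was called, lower by 0.90 log2. The summed biliary level was 324 to 524 CPM in Q20 and 282 to 567 CPM in WT. Of 3 erythroid precursors, which report the blood left in the tissue, Mir144 was lower by 0.85 log2, while Mir486 (-0.26 ± 0.17 log2, adjusted p = 0.194) and Mir451a (-0.32 ± 0.20 log2, adjusted p = 0.188) did not pass. Mir126a, the endothelial marker hosted by Egfl7, was higher by 0.24 log2, at 22235 to 26227 CPM in Q20 and 17081 to 23688 CPM in WT. Of 6 stellate and mesenchymal precursors, Mir145a was lower by 0.70 log2 and Mir214 higher by 1.17 log2. The summed leukocyte list was at 3397 to 7377 CPM in Q20 and 3033 to 4623 CPM in WT. The part of cell composition in these differences was not tested.

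Precursors that liver should hold little of were low in both groups. The neuronal list summed to 93.8 to 132 CPM in Q20 and 48.2 to 87.9 CPM in WT, without overlap. In it, Mir128-1 (0.62 log2), Mir132 (0.99 log2) and Mir212 (0.51 log2) were higher and 5 of 8 did not pass, beside 31.9% higher over all precursors. Mir212 lost its call in 12 of 28 alternative fits. Mir375, the islet microRNA, was lower by 1.10 ± 0.31 log2 at 5.47 to 14.3 CPM in Q20 and 7.10 to 42.5 CPM in WT. The muscle list was tested through Mir133a-1 alone, at 41.0 CPM in WT female 3 and at most 18.2 CPM in the other WT livers. Its difference of -1.12 ± 0.58 log2 did not pass (adjusted p = 0.113), and without that library it was -0.16 log2. Mir133a-2 and Mir208a were at 0 in all 16 libraries.

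The imprinted Dlk1-Dio3 cluster on chromosome 12 had 2 higher, 2 lower and 6 not called of 10, beside 31.9% higher and 25.2% lower over all precursors. Mir127 was higher by 1.32 ± 0.30 log2 and by 1.73 ± 0.17 log2 without WT female 3, its highest WT library. The X-linked Mir743/Mir465 cluster, which is higher in males, had 2 higher, 3 lower and 6 not called of 11, against the same shares, with Mir465c-1 and Mir465c-2 at 1.81 log2 each and Mir741 at -1.62 log2. Mir465c-1 and Mir465c-2 belong to 1 group of 4 precursors linked by identical arms, so their calls may not be separate. That group summed to means of 10.9 CPM in Q20 and 4.91 CPM in WT. Mir743b, chosen as a male-biased precursor, parted by labelled sex in all 16 libraries, at 2.18 to 6.52 CPM in females and 25.1 to 105 CPM in males. Given that choice, the match is a description. Of 4 precursors made without the standard Drosha route, Mir320 and Mir877 were higher, by 0.93 and 1.86 log2, and Mir484 (-0.01 ± 0.08 log2, adjusted p = 0.948) and Mir1981 (0.08 ± 0.11 log2, adjusted p = 0.577) did not pass. Between the sexes, the Q20 minus WT difference differed in 0 of 313 precursors (0%) in edgeR at an adjusted p under 0.05, with 10 at an unadjusted p under 0.05 and 0 by DESeq2.

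Called precursors also differed from the rest in their features, which are described without a test. Level separated called from uncalled precursors most plainly. The median over called precursors was 84.6 CPM for those that were higher and 104 CPM for those that were lower, beside 6.66 CPM for those not called. In the lowest tertile of level 29.8% were called and in the highest 73.3%. The median size of the difference was about as large in the lowest (0.57 log2) as in the highest tertile (0.49 log2), while the median SE was 0.44 and 0.11 log2, so the tertiles differed in precision.

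Length went with direction. Precursors that were lower had a median length of 82 bases, those not called 85 bases and those higher 89 bases. In the shortest tertile (57 to 80 bases) 21.5% were higher and 32.7% lower. In the longest (95 to 166 bases) 35.9% were higher and 16.5% lower. Spearman's rho of length with log2 change was 0.16 over 313 precursors and 0.31 over the 143 with at least 50 CPM. Precursors are not independent replicates, and all points share the same 16 libraries.

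Read sharing, taken from non-whole counts, gave similar called shares in its largest classes but not the same size of difference. Of the 174 precursors with whole counts in all 16 libraries, 59.2% were called (35.1% higher, 24.1% lower). Of those with non-whole counts in at least 50% of libraries, 57.6% were called (29.6% higher, 28.0% lower). Median sizes of the difference were 0.50 and 0.75 log2 in these classes. Of the 14 precursors between them, 28.6% were called, with a median size of 0.57 log2. Fitted alone, the whole-count precursors gave 94 calls, 91 of them among the 179.

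Base composition of the mature arms went with direction. The median GC content of the arms was 50% for precursors that were higher, 46.5% for those not called and 43.2% for those lower, over 220 precursors with an arm in RefSeq. In the highest tertile of arm GC (52.0% and more) 50.7% were higher and 13.7% lower, and in the lowest 25.6% and 35.4%. Single bases showed the same, with a median A content of 21.4% in arms of higher and 25% in arms of lower precursors, and a median G content of 26.7% and 21.2%. Spearman's rho with log2 change was 0.36 for GC, -0.38 for A and 0.37 for G. For precursor GC it was 0.14 over 285 precursors, a larger set than the 220 with an arm. Over the 108 with at least 50 CPM the coefficients for the arms were 0.24, -0.36 and 0.33. With the contrast in the longer alleles described below, those for GC, A and G over all levels were 0.07, -0.07 and 0.12. Composition was averaged over the RefSeq arms of each precursor. Among single printed arms, miR-744-5p (63.6% GC, precursor higher) and miR-19a-3p (34.8%, lower) went with this direction. Others went against it, such as miR-5100 (61.9%, lower) and let-7f-5p (31.8%, higher).

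**Figure D3:**
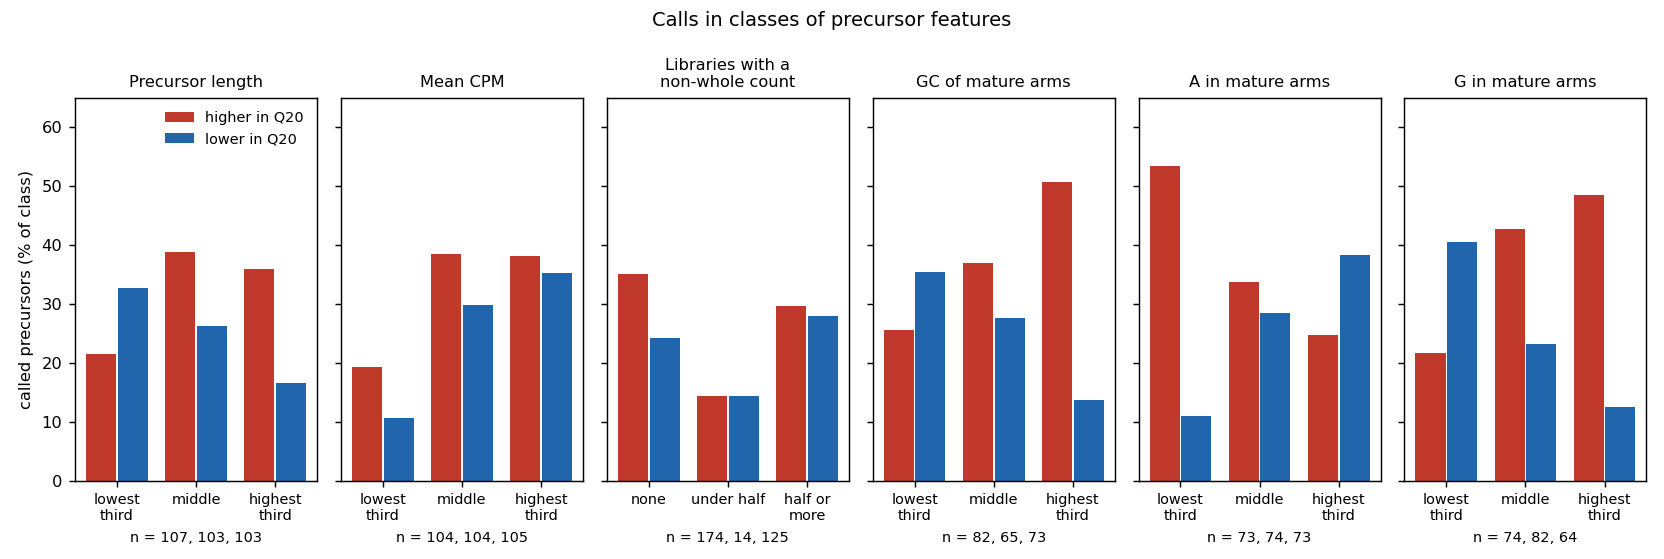
Share of precursors called higher (red) or lower (blue) in Q20 (vertical axis, % of the class) in classes of 6 features (horizontal axis, with the number of precursors in each class). For GC of the mature arms the share called higher rises from 25.6% to 50.7% across tertiles and the share called lower drops from 35.4% to 13.7%.

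At the other ages the genotypes did not part in this way. Q20 and WT were compared in separate sets of 8 mice each at 2 and at 10 months, whose libraries all carry the same kind of name. With edgeR, 0 of 316 precursors (0%) were called at 2 months and 0 of 314 (0%) at 10 months. At an unadjusted p under 0.05 there were 23 and 4, and DESeq2 called 0 at both ages. In the 17 precursors named for the size or p-value of their 6 month difference, that difference was at least 0.76 log2 in size, and none exceeded 0.44 log2 at 2 or 10 months. The choice of these precursors favours larger values at 6 months, so the contrast is a description.

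The difference between ages was tested directly. The Q20 minus WT difference at 6 months departed from the mean of those at 2 and 10 months in 149 of 316 precursors (47.2%), 83 (26.3%) upward and 66 (20.9%) downward. The 6 month difference enters this contrast, so a departure of precursors that were chosen by that difference is a description. For Mir101a the departure was -1.89 log2 and for Mir423 1.79 log2.

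The 6 month levels were also set against those at other ages, as log2 distances from the mean of the 2 and 10 month Q20 and WT libraries. For precursors that were higher, the median distance was 0.30 in Q20 and -0.74 in WT, and WT lay farther in 76 of 100. For those that were lower it was -0.54 in Q20 and 0.11 in WT, and Q20 lay farther in 51 of 79. Precursors that were not called had medians of -0.22 in Q20 and -0.38 in WT, with WT farther in 84 of 134, so part of the WT distance was present without a call. For Mir122 the medians were 23881 CPM (Q20) and 25071 CPM (WT) at 2 months and 24137 and 22435 CPM at 10 months, between the 6 month medians of 33625 CPM in Q20 and 10011 CPM in WT. For Mir1928 the medians were 408 and 480 CPM at 2 months and 463 and 451 CPM at 10 months, near the 6 month WT median of 315 CPM and far from the 28.1 CPM of Q20. For Mir146 the other ages, at 512 to 780 CPM, also lay near WT (609 CPM).

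**Figure D4:**
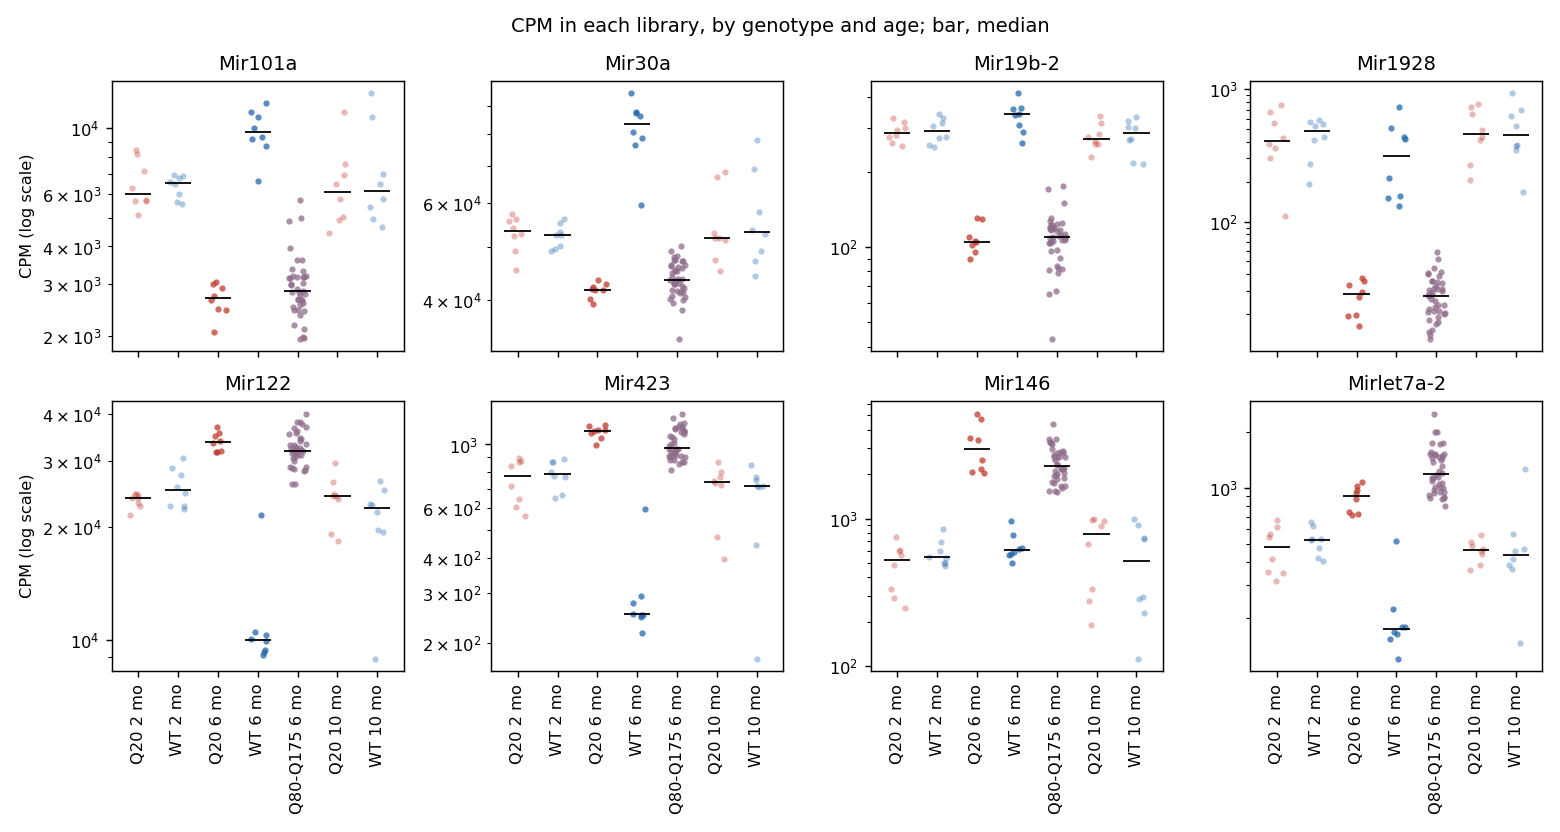
Level of 8 precursors in each library (vertical axis, CPM, log scale) by genotype and age (horizontal axis), with the bar at the group median. Mir1928 and Mir146 in 6 month Q20 depart from all groups of other ages and lie with the 40 longer-allele libraries of 6 months, and Mir122 and Mir423 in 6 month WT lie below the medians of all other groups.

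The 40 longer-allele libraries of 6 months carry the same kind of name as Q20. Their median for Mir1928 was 27.5 CPM (at most 59.1 CPM), for Mir146 2264 CPM (1511 to 4405 CPM), for Mir101a 2827 CPM and for Mir122 31952 CPM. All 4 medians lay near those of 6 month Q20 rather than 6 month WT. Within Q80 to Q175, which include no library of the 16, 6 months differed from 2 and 10 months in 257 of 344 precursors (74.7%), 122 (35.5%) higher and 135 (39.2%) lower. In this contrast age and library set coincide as well.

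Of the 100 precursors that were higher in Q20, 84 were on the higher side in the longer-allele contrast. Of 78 that were lower and had a value, 58 were on the lower side, and of 134 not called 71 had the same sign. Across 312 precursors Pearson's r was 0.63 and Spearman's rho 0.52, given as description, since the precursors are not independent. The largest differences were shared, as for Mir5100 (-4.51 log2 in the longer alleles), Mir1928 (-3.98 log2), Gm23766 (-3.60 log2), Mir3963 (-2.96 log2) and Mir146 (2.03 log2). Other abundant precursors with a clear Q20 and WT difference moved little there: Mir30a by -0.05 log2, Mir22 by 0.20 log2 and Mir192 by 0.12 log2. Mir22 and Mir192 still passed the edgeR test in that contrast (adjusted p = 1.45e-04 and 0.00976). Mir192 moved there in the direction opposite to its Q20 against WT difference.

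**Figure D5:**
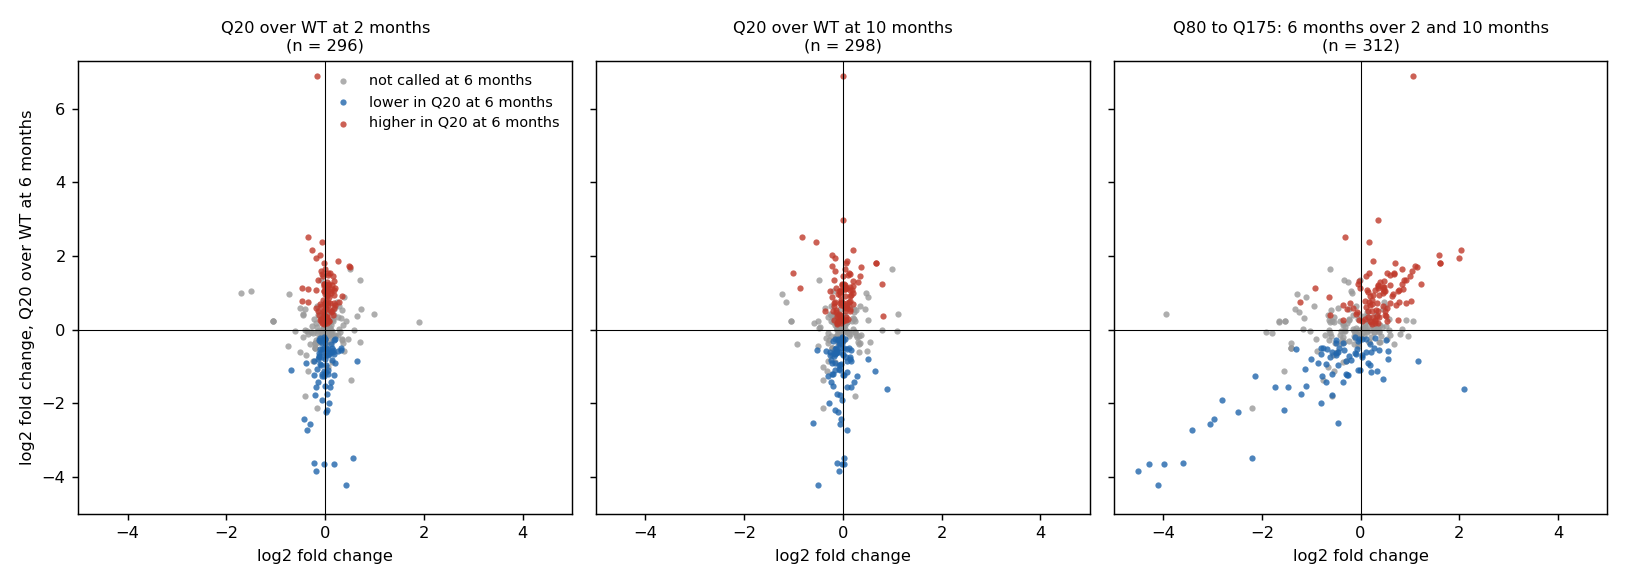
Log2 fold change of Q20 over WT at 6 months (vertical axis) against Q20 over WT at 2 months, Q20 over WT at 10 months, and 6 months over 2 and 10 months in Q80 to Q175 (horizontal axes, log2 fold change), 1 point per precursor. The values at 2 and 10 months cluster near 0 (median size 0.11 and 0.13), while those of the longer alleles run along the 6 month values (r = 0.63 over 312 precursors).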

How the data were processed

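Liver small RNA of 8 Q20 and 8 WT mice at 6 months was analysed, with the other groups for comparison. Per the study's methods the authors clipped single-end reads, aligned them with STAR to mm10 and counted them with HTSeq. Submitters' notes name CASAVA 1.8.2. The authors deposited estimated counts, many of them not whole, for 1626 precursor transcripts. How these arose is not given in the sources used here. Counts were rounded for tests, where the design had assumed whole counts. The deposited FPKM gave only precursor lengths. No per-sample column was left unused.

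Transcripts were matched to GENCODE M21 (1228 matched), and arms to RefSeq (GRCm38). Precursors with at least 10 counts in at least 7 of the 56 libraries of an age were tested with edgeR 4.0.16 in R 4.3.3 (quasi-likelihood, TMM, sex as covariate, Benjamini-Hochberg). DESeq2 1.42.0 was an alternative. SE is the size of the log2 change over the root of F. Tested on simulated data for Q20 against WT at 6 months (313 precursors), the fit called 82.5% of 200 precursors changed by a fold of 2. Mice are separate animals by label. No replicate pair was within sampling noise. Positions count from base 1.

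Named were precursors called without overlap (8 smallest p in each direction), the 4 largest changes in each direction from 10 CPM (both among precursors with a symbol), the 10 most abundant, leading members of clusters or seed groups called both ways, and the most abundant members of 18 lists. Other cluster members, copies and ratios were chosen after their values were seen. The members and lists were chosen with earlier results of these data known. Reads carry no molecular identifiers. Some items are not reported here.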

Additional observations from a re-analysis of the deposited data

Results flagged for a closer look

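In 29 of 142 sets of 8 libraries, 1 library lay far from the other 7. The measure is the gap to the nearest other library as a share of the whole range, with 0.526 as the limit for 8 libraries. For a single set of normally distributed values that limit is passed in about 1 of 20. The sets come from the same 16 libraries and are not independent, so their number is a description. In 18 of the 29 the distant library was WT female 3, always as the highest. Its share was largest for Mir122 (0.888), Mir22 (0.869), Mir30c-2 (0.818) and Mirlet7b (0.810). It was 0.798 for Mir423, 0.788 for Mir5100, 0.780 for Mir744, 0.762 for Mir27b, 0.738 for Mirlet7a-2 and 0.736 for Mir29c. It was 0.690 for Mir127, 0.688 for Mirlet7a-1, 0.655 for Mirlet7i and 0.612 for Mir132. Mir133a-1 (0.583), Mir320 (0.571), Mir24-2 (0.566) and Mir23b (0.562) lay nearest the limit. WT male 4 was the highest WT library for the biliary precursors Mir200b (0.589), Mir200a (0.547) and Mir429 (0.632) and for Mir199a-1 (0.593). Q20 male 3 was the highest Q20 library for Gm23766 (0.805), Mir128-1 (0.699) and the erythroid precursors Mir451a (0.630) and Mir144 (0.562). Q20 male 2 was the highest for Mir92-1 (0.577) and the lowest for Mir192 (0.576), and Q20 female 4 was the highest for Mir30c-1 (0.529). No library total lay apart in this way.

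The Q20 minus WT difference at 6 months departed from that at 2 and 10 months in 149 of 316 precursors, by a test of the difference itself (edgeR, adjusted p under 0.05), and in 41 of the 70 named ones, many of them named for the 6 month difference that enters this test. Upward departures of over 1 log2 were those of Mir146 (2.18), Mirlet7a-2 (2.18), Mir146b (2.13), Mir423 (1.79), Mir744 (1.62), Mir122 (1.45), Mirlet7b (1.24), Mirlet7a-1 (1.19) and Mir127 (1.14). Other let-7 precursors departed less, with Mirlet7f-2 at 0.80, Mirlet7i at 0.73 and Mirlet7g at 0.40 log2. Members of the miR-17-92 cluster and its paralogs gave 0.97 (Mir92-1), 0.50 (Mir17) and 0.44 (Mir25) log2. The remaining upward values were 0.92 for Mir320, 0.81 for Mir22, 0.81 for Mir132, 0.77 for Mir212, 0.75 for Mir30c-1, 0.58 for Mir128-1, 0.42 for Mir24-2 and 0.22 for Mir26a-2. Downward departures of over 2 log2 were those of Mir5100 (-3.75), Mir1928 (-3.66), Gm23766 (-3.51), Mir3963 (-2.21) and Mir19a (-2.13). Mir101a (-1.89), Mir19b-2 (-1.72), Mir142b (-1.09) and Mir30a (-1.06) came next. The rest were -0.96 for Mir99b, -0.89 for Mir30e, -0.88 for Mir125b-2, -0.87 for Mir144, -0.76 for Mir145a, -0.70 for Mir21a, -0.62 for Mir29b-1, -0.56 for Mir192 and -0.54 for Mir32. At 2 and 10 months both genotypes carry library names of the same kind, and at 6 months they do not. What the departures reflect was not tested.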

How the results depend on the processing

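Of the 179 calls, 156 were made in each of the 16 fits that leave out 1 library. Counts in those fits ran from 169 to 196, the latter without WT female 3. With the L code of the library names in the fit, where genotype was estimated only within L8, 89 were called, and with whole-count precursors only 94 of 174. Other settings gave 160 (no sex term) to 183 (no filter on low counts). DESeq2 gave 179, 88 of them higher, and RLE size factors 174, 85 higher. No call changed sign in these fits (copies of 1 arm summed aside) except Mir26b, at 0.058 log2 with the L code (adjusted p = 0.813) and -0.26 without. The share of calls that were higher was 55.9%, and 62.5% with total count scaling, where the median of all precursors was 0.18 in place of 0.07 log2. The difference between sexes had 0 calls and 3 of 1006 with no filter on low counts. The age comparison gave 126 to 153 calls, and 2 and 10 months gave 0 under each alternative run. Replicate numbers did not pair livers: deviations of same-numbered libraries correlated over 0.1 in 2 of 8 pairs, and 3 of 8 correlated best with their own number. A replicate block gave 165 calls. The total count difference was 1.31 to 1.60 M counts over the omissions. Among 70 named precursors, the L code cost 17 their call besides Mir26b, RLE 4, and total count scaling cost 4 and added 4. Calls lost most often were those of Mir30c-2 (14 of 26 fits), Mir212 (12 of 28), Mir26b (11 of 28, besides its reversal), Mir148a (7 of 28) and Mir26a-2 (5 of 26). Mir126a, Mirlet7g, Mir743b and Mir881 lost theirs in 3 fits each, and Mir26a-1 and Mir125a in 2. Depth limits the rarest: the median SE was 0.44 log2 in the lowest tertile of level.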

Other observations

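A single WT library of 10 months, male 4, lay at 6 month WT levels for several of the precursors named above. It held 8909 CPM of Mir122 where the other 7 WT libraries of that age held 19403 to 26469 CPM, 176 CPM of Mir423 against 442 to 845 CPM, and 92.0 CPM of Mir744 against 174 to 216 CPM. It was also the highest WT library of its age for Mir101a (13086 CPM, the others 4650 to 10880 CPM) and Mir30a (78025 CPM, the others 44165 to 69230 CPM). Mir146 was at 112 CPM in it, below both the 6 month WT and the 6 month Q20 range. This library was picked after its values were seen, and what sets it apart was not tested.

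WT female 3 of 6 months exceeded the other 7 WT livers most for Mir331 (70.7 CPM, at most 16.2 CPM elsewhere), Mir193a (218 and 64.9 CPM) and Mir150 (278 and 89.1 CPM), none of which was called between genotypes.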
